A study of Mus musculus with 8 samples.

Results

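Of 21951 mouse protein-coding genes, 1345 (6.13%) had a peak of histone H3 lysine 27 acetylation (H3K27ac) at the promoter in Oli-neu cells that were proliferating and no such peak there once the cells were differentiating. These 1345 promoters were chosen by the presence of a peak in one deposited list and its absence from the other, so that contrast is the selection rule and not a result. The promoter region was the stretch from 3000 bp before to 100 bp after the gene's transcription start site (TSS) on the strand of the gene, in the mouse build GRCm38/mm10, and 1 base in common with a peak was enough. A further 3867 genes (17.6%) had a promoter peak in both lists and 2218 (10.1%) in the differentiating list alone.

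H3K27ac was measured by ChIP-seq, in which chromatin fragments bound by an antibody against the mark are sequenced, in Oli-neu, a mouse line of embryonic oligodendrocyte progenitor cells (strain C57BL/6 by the labels), with 1 library per state. Proliferating cells were kept in DMEM with N2 supplement, 340 ng/ml T3, 400 ng/ml L-thyroxine, 10 ng/ml bFGF and 1 ng/ml Pdgf-BB. Differentiating cells received growth factor-free medium with 1 µM PD174265, an inhibitor of Erb receptors, for 1 day according to the labels, although the study's culture methods give a longer time. Both libraries come from a single cell line, so neither stands for oligodendrocyte precursors in the animal. With 1 library per state there is no replicate spread to set a difference against, the states were not tested against each other, and the absence of a peak means only that the peak caller listed none. Read counts are not part of the lists, which leaves the depth of each peak unknown. For the whole libraries, the study reports more uniquely mapped reads in the differentiating than in the proliferating state. Whether this changed which list lacks a peak was not tested. Intervals below are exact binomial 95% intervals (Clopper-Pearson) that cover counting error only.

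The labelled cell type was checked against marker genes. Of 6 oligodendrocyte lineage markers, 3 (Olig1, Olig2 and Sox10) had a promoter peak in both lists, and Sox8 had one in the differentiating list alone. Among 6 precursor markers, Ptprz1 and Sox6 were marked in both lists and Sox5 in the proliferating list alone. No promoter of 7 microglia or 6 endothelial markers held a peak in either list. Of 8 astrocyte markers, 2 were marked in both lists and 2, Gja1 and Slc1a3, in the proliferating list alone, and of 8 neuron markers Gad1 was marked in the proliferating list alone and Syt1 in the differentiating list alone. The peaks of Gja1, Slc1a3 and Gad1 lay at the far upstream end of the region, with −log10 q of 1.65, 1.20 and 1.64, and none covered the TSS. Of 7 markers of mature oligodendrocytes, Myrf alone was marked, in the differentiating list.

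H3K27ac is laid down by the acetyltransferases p300 and CBP, removed by histone deacetylases, and found on the nucleosomes that flank active promoters and enhancers. Most vertebrate housekeeping promoters lie in CpG islands, stretches rich in the dinucleotide CG, whereas many tissue-restricted promoters do not. Oligodendrocyte precursors divide in response to Pdgf and Fgf, leave the cell cycle when these are withdrawn and then switch on the genes of myelin. Oli-neu cells were immortalised with an activated form of the Erb-family receptor neu, and inhibiting it lets them differentiate.

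The sequences below show what kinds of promoter were among the members, since the rule that chose them did not use CpG content. They are the 200 bases just before the TSS of the 4 CpG-rich and the 4 other members of highest −log10 q whose peak covered the TSS, written 5′ to 3′ on the strand of the gene from GRCm38.p6 (RefSeq), with CG dinucleotides in capitals. Lrch4, Ube3b, Gpatch2, Spata17 and Myl12a ranked high enough but their stretch overlapped an annotated untranslated region, so the next genes were taken. The CpG-rich set is Zfp426 (chr9:20492747-20492946, minus strand), a zinc finger gene; Sipa1l1 (chr12:82169120-82169319, plus strand), a GTPase-activating protein for Rap; Tarbp2 (chr15:102517992-102518191, plus strand), a partner of Dicer; and Ddx17 (chr15:79546742-79546941, minus strand), an RNA helicase.
Zfp426: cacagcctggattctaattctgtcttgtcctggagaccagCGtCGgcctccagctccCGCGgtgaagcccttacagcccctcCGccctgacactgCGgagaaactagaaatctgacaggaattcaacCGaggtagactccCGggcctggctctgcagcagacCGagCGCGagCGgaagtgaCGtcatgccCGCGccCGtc
Sipa1l1: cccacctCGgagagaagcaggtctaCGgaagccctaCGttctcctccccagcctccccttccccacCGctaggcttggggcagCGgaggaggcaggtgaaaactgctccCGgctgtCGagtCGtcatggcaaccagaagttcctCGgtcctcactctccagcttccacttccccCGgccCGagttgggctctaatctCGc
Tarbp2: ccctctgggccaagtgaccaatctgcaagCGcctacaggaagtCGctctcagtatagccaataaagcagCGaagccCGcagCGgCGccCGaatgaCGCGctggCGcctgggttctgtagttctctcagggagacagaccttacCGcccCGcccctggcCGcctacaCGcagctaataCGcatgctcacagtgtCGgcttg
Ddx17: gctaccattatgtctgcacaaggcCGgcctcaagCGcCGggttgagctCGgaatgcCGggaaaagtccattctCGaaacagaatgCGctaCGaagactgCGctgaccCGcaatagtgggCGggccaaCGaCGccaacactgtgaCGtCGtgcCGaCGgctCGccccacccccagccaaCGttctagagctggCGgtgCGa
The other set is Smim10l1 (chr6:133104709-133104908, plus strand), a small membrane protein gene. Vldlr (chr19:27216284-27216483, plus strand) encodes a receptor for lipoproteins and reelin. Plxna3 (chrX:74328866-74329065, plus strand) encodes a semaphorin receptor, and Polr3gl (chr3:96594182-96594381, minus strand) a subunit of RNA polymerase III.
Smim10l1: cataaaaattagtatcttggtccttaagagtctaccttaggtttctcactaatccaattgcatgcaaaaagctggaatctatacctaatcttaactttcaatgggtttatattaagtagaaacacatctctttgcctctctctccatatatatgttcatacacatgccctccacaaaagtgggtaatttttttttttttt
Vldlr: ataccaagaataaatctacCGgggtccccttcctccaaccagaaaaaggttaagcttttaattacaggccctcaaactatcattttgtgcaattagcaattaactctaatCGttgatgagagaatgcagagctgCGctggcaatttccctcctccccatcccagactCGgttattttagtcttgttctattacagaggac
Plxna3: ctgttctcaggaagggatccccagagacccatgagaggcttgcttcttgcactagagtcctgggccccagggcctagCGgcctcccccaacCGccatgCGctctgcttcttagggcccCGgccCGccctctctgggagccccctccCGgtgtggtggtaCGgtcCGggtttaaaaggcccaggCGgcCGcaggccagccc
Polr3gl: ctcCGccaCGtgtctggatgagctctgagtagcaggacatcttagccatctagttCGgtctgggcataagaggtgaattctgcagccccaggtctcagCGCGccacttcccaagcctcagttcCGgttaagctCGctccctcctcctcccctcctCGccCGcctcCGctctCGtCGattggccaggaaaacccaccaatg
The CpG-rich stretches held between 12 and 21 CG dinucleotides. Smim10l1 held 0 and Vldlr 4, whereas Plxna3 held 10 and Polr3gl 12 but did not reach the CpG-rich class over the wider window described next. All but Smim10l1, of which 21 of the 200 bases lay under the peak, were covered from end to end.

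Most promoters with a peak in the proliferating list alone were CpG-rich. A promoter was called CpG-rich where the 1000 bases around the TSS had a GC content of at least 50% and at least 0.6 of the CG dinucleotides expected from their base composition. By this measure 834 of 1345 members (62.0%, interval 59.4 to 64.6) were CpG-rich, beside 85.4% (84.2 to 86.5) of the genes marked in both lists, 71.9% (70.0 to 73.7) of those marked in the differentiating list alone and 27.7% of genes marked in neither. Over all protein-coding genes the share was 44.4%. The members' median GC content was 57.7% and their median observed-to-expected CG ratio 0.70, against 54.8% and 0.55 over all genes. A stricter definition (55% and 0.65) took the members' share to 49.3%.

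Peaks of the CpG-rich members and of the remaining 511 were set side by side. The peak covered the TSS in 501 of 834 CpG-rich members (60.1%, interval 56.7 to 63.4) and in 173 of 511 others (33.9%, 29.8 to 38.1). Of the CpG-rich members 27.1% had a −log10 q of 3 or more, and of the others 13.5%. A differentiating peak lay within 1000 bp of the region for 34.7% of the CpG-rich members and 17.4% of the others.

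**Figure D1:**
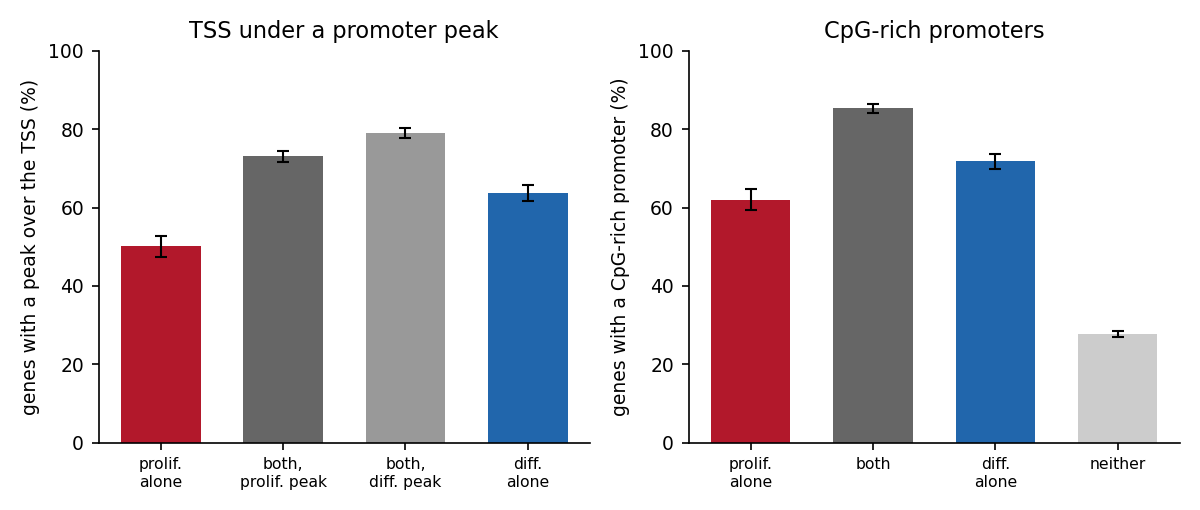
Left, the share of genes whose TSS lay under a promoter peak; right, the share of genes with a CpG-rich promoter, in both panels as percent of the genes in each class, with exact binomial 95% intervals as error bars. Genes marked in the proliferating list alone stood at 50.1% and 62.0%, below the genes marked in both lists in either panel.

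Short motifs in the 200 bases before the TSS were searched on both strands, and a match is a description of letters, not of binding. None of the strings contains another. The GC box (GGGCGG) is read by Sp and Klf factors. It occurred in 48.9% of members, 58.7% of genes marked in both, 53.8% of those in the differentiating list alone and 37.5% of all genes. Within the CpG-rich promoters it stood at 64.3% of members and 63.3% of all genes. In the other promoters it stood at 23.9% of members (interval 20.2 to 27.8) and 16.9% of all genes. The CCAAT box (CCAAT), read by NF-Y, occurred in 33.5% of members. Genes marked in both, in the differentiating list alone and all genes stood at 32.1%, 30.9% and 31.7%. The Ets string CCGGAAG occurred in 12.2% of members, beside 13.0%, 12.8% and 7.41%, and within CpG-rich promoters in 144 of 834 members (17.3%, interval 14.76 to 20.01) and in 12.8% of 9740 genes. The TATA box (TATAAA) occurred in 6.25% of members (interval 5.01 to 7.67), above the 3.39% of genes marked in both and below the 9.29% of all genes. The 5.06% of those marked in the differentiating list alone lies inside the interval. Within CpG-rich promoters TATA stood at 4.20% of members and 3.86% of all genes, and in the other promoters at 9.59% and 13.6%.

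The other strings searched belong to factors of growth and of the glial lineage, and are again given beside genes marked in both lists, in the differentiating list alone and all genes. The E2F string TTTGGCGC, of the factors that time the S phase, occurred in 5 of 1345 members (0.372%, interval 0.121 to 0.865) beside 0.907%, 0.722% and 0.424%. The AP-1 string TGANTCA occurred in 3.72% of members (2.77 to 4.87), above the 2.28% and 2.35% of the other marked genes. The 4.81% of all genes lies inside that interval. The Sox string ACAAAG likewise stood at 11.6% (9.94 to 13.4), above 8.21% and 8.98%, with the 12.1% of all genes inside the interval. Within CpG-rich promoters AP-1 stood at 2.64% of members and 2.17% of all genes, and Sox at 8.03% and 7.38%. In the other promoters AP-1 stood at 5.48% and 6.93%, and Sox at 17.4% and 15.9%. The cAMP response element TGACGTCA occurred in 36 members (2.68%), beside 2.88%, 2.62% and 1.86%, and 1 copy stands in the Zfp426 stretch above. The E-box CACGTG occurred in 7.21% of members, beside 7.88%, 7.86% and 5.65%.

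The members' promoter peaks were weak beside those of genes marked in both lists, which is a description, since the same lists chose them. Strength is the authors' −log10 q of the strongest promoter peak, and fold enrichment is the peak caller's ratio of signal to background. Over the 1345 members −log10 q ran from 1.03 to 8.79 with a median of 2.20 (order-statistic interval 2.13 to 2.25), and fold enrichment from 2.14 to 5.96 with a median of 3.47. For the proliferating peaks of the genes marked in both lists the median −log10 q was 2.96 and the highest 201.4. The median over all proliferating peaks, at promoters or not, was 1.93. A −log10 q of 5 or more was found in 49 members (3.64%) and in 17.3% of the genes marked in both. Genes marked in the differentiating list alone showed the same, with a median of 2.26 and 5.86% at 5 or more. The differentiating peaks of genes marked in both had 3.18 and 20.7%.

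The share of marked genes that lacked a counterpart was lower in each stronger group. Genes with a proliferating promoter peak were ranked by −log10 q and divided into 10 groups of equal size. In the weakest group, 275 of 522 genes (52.7%, interval 48.3 to 57.0) had no differentiating promoter peak, and in the strongest 36 of 522 (6.90%, 4.88 to 9.42). The same ranking of the differentiating list gave 64.5% in its weakest group and 12.3% in its strongest. Of the members, 516 (38.4%) had a peak below the median −log10 q of all 28924 proliferating peaks, and 168 (12.5%) had one in the top 10% of that list.

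**Figure D2:**
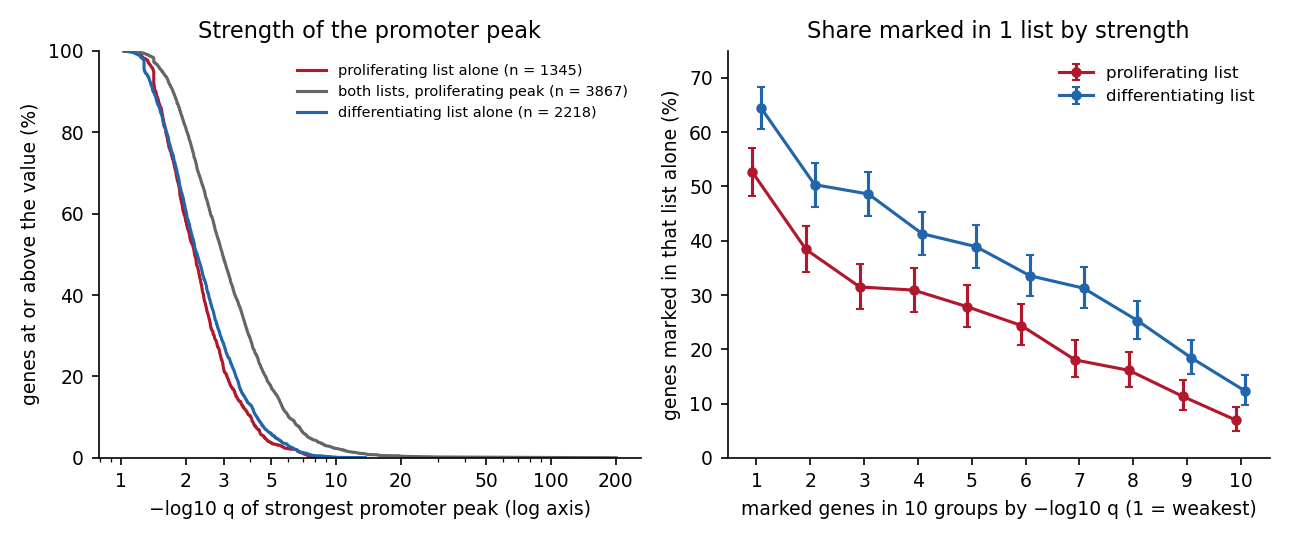
Left, the percent of genes whose strongest promoter peak reached a given −log10 q (log axis) for the 3 classes of marked genes, where the class marked in the differentiating list alone is on the scale of that list; right, the percent of marked genes that were marked in 1 list alone, by group of −log10 q from 1 (weakest) to 10, with exact binomial 95% intervals. The line of the proliferating list fell from 52.7% in the weakest group to 6.90% in the strongest.

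Of the 12 members of highest −log10 q, 8 had a differentiating peak within 1000 bp of the region and 3 had none within 10 kb. Lrch4, a leucine-rich repeat gene, had the highest −log10 q (8.79, fold enrichment 5.48), followed by Eif4a1, the helicase of translation initiation (8.49), and Mthfs, an enzyme of folate metabolism (7.97). A differentiating peak lay 26, 35 and 24 bp beyond the end of their regions. Smim10l1 (7.86), 6030458C11Rik (7.76), Sipa1l1 (7.41) and Tarbp2 (7.37) likewise had one 201, 7, 2 and 15 bp away. Vldlr (7.15) had one 513 bp away.

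The remaining 4 of these 12 had the nearest differentiating peak at 4659 bp or farther. Zfp426 carried a peak of −log10 q 7.53 and fold enrichment 5.96 (chr9:20492658-20493052), the highest fold among members, and its nearest differentiating peak was 25601 bp from the region. Kctd10, an adaptor of Cul3 ubiquitin ligases, and Ube3b, a ubiquitin ligase, are divergent neighbours that shared 1 peak of −log10 q 7.36 (chr5:114380593-114381087). The nearest differentiating peak was 82882 bp from the Kctd10 region and 85683 bp from that of Ube3b. Abcc1, a drug efflux transporter, had a peak of 7.26 that ended before the TSS and a differentiating peak 4659 bp away.

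A stricter set was picked after the values were seen, and no count of it carries weight. It holds the members whose TSS lay under a peak of −log10 q of at least 5 with no differentiating peak within 10 kb of the region, and 6 genes met it. Zfp426 and Ube3b were among them. The others were Gpatch2, a G-patch nuclear protein (7.10), Ptar1, a prenyltransferase subunit (6.44), Plxna3 (5.66) and Kif3b, a motor subunit of kinesin-2 needed for cilia (5.62), with nearest differentiating peaks at 10294, 26842, 55345 and 18794 bp. At a −log10 q of at least 3 the number was 51, and without a threshold on strength 311 (23.1% of members).

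The widest member peak spanned 3620 bp at Gdf11, a growth factor of the Tgf-beta family, with a −log10 q of 1.78. Sspn, a protein of the dystrophin complex, followed with 3354 bp, then Trp53i11 with 3059 bp, Arid1b, a subunit of the BAF chromatin remodeller, with 3054 bp, and Msh3, a protein of DNA mismatch repair, with 2983 bp. Nab2, a repressor of Egr factors, had 2932 bp and the Krüppel-like factor Klf3 2883 bp. Over all members the width had a median of 712 bp and a 10th to 90th percentile of 263 to 1503 bp, where 263 bp is the narrowest width. A differentiating peak lay within 1000 bp of the region for Gdf11, Sspn, Trp53i11, Arid1b, Nab2 and Klf3, but 172362 bp away for Msh3.

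A promoter peak covered the TSS in 674 members (50.1%, interval 47.4 to 52.8). The share was 73.1% for the proliferating peaks of genes marked in both lists, 79.0% for their differentiating peaks and 63.7% for genes marked in the differentiating list alone. Of the 671 members whose TSS was not covered, the strongest peak lay upstream in 453 and downstream in 218. The region itself reaches 3000 bp upstream and 100 bp downstream, so the sides had unlike room. The centre of the peak was more than 2000 bp upstream, down to the end of the region at 3000 bp, in 10.0% of members (interval 8.48 to 11.8), beside 3.44% for genes marked in both and 5.09% for genes marked in the differentiating list alone. Members with a covered TSS were CpG-rich in 74.3%, against 49.6% of the others, and their median −log10 q was 2.22 against 2.19.

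The proliferating peaks were densest just downstream of the TSS. At 100 bp downstream 64.0% of members lay under a proliferating peak, at 500 bp 32.5% and at 1000 bp 11.4%. Upstream the share was 8.25% at 1000 bp and 6.25% at 2500 bp. Differentiating peaks were absent up to 100 bp downstream by the rule, but covered 12.3% of members at 200 bp, 19.7% at 400 bp and 11.4% at 1000 bp. The genes marked in the differentiating list alone showed the mirrored shape, with proliferating peaks over 17.1% of them at 400 bp.

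**Figure D3:**
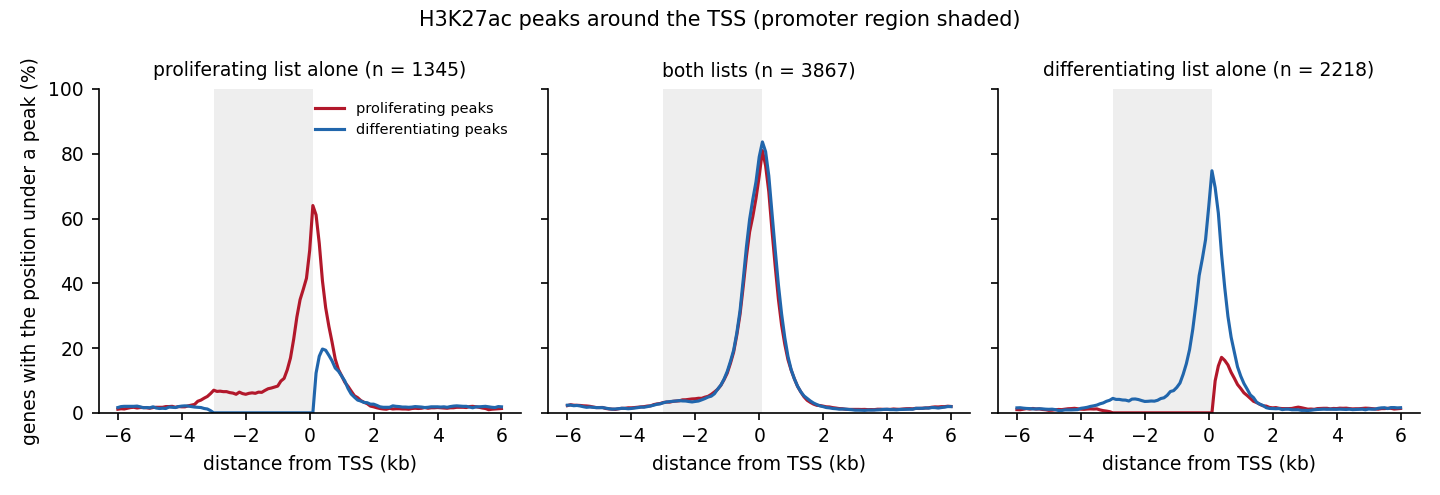
Percent of genes with a position under a peak of each list, against distance from the TSS in kb with the direction of transcription to the right, for genes marked in the proliferating list alone, in both and in the differentiating list alone; the promoter region is shaded. In the first panel the differentiating line is at 0 in the shaded region, as the rule sets, and rises to 19.7% at 400 bp downstream.

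The distance from a member's promoter region to the nearest differentiating peak had a median of 10275 bp (order-statistic interval 8958 to 12179), counted so that the base next to the region is at 1. This median depended on the rule: it was 19477 bp where the region reached 1000 bp to either side of the TSS, 20893 bp with differentiating peaks extended by 1000 bp, 15904 bp where at least 0.5 of the proliferating peak had to lie inside the region, 4804 bp where that peak needed a −log10 q of 3 and 230060 bp where peaks of both lists needed one of 5. Its quartiles were 596 and 34907 bp and its range 2 to 2539838 bp. A differentiating peak lay within 1000 bp for 378 members (28.1%), from there to 10000 bp for 288 (21.4%) and farther for 679 (50.5%), of which 113 were more than 100 kb from one. Of the 378, the peak lay downstream of the TSS in 337 and upstream in 41. The region ends 100 bp after the TSS but 3000 bp before it. A downstream peak near the region is thus far closer to the TSS, and the sides are not compared at like distances. For genes marked in the differentiating list alone, the distance to the nearest proliferating peak had a median of 12943 bp, and 23.7% had one within 1000 bp and 44.8% within 10 kb, beside 49.5% of the members.

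In 300 members (22.3%) the promoter peak itself overlapped a differentiating peak outside the region. A differentiating peak lay somewhere in the gene body of 646 members (48.0%), and in the promoter region of another annotated transcript of the same gene in 328 (24.4%). Genes marked in the differentiating list alone stood close to this against the proliferating peaks, with 19.7%, 47.8% and 22.3% in the same order. Among the 378 with a differentiating peak within 1000 bp, the TSS was covered in 60.3%, the promoter was CpG-rich in 76.5%, 33.1% reached a −log10 q of 3 and the median width was 923 bp. Among the 679 with none within 10 kb, these values were 45.8%, 57.6%, 16.9% and 603 bp.

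**Figure D4:**
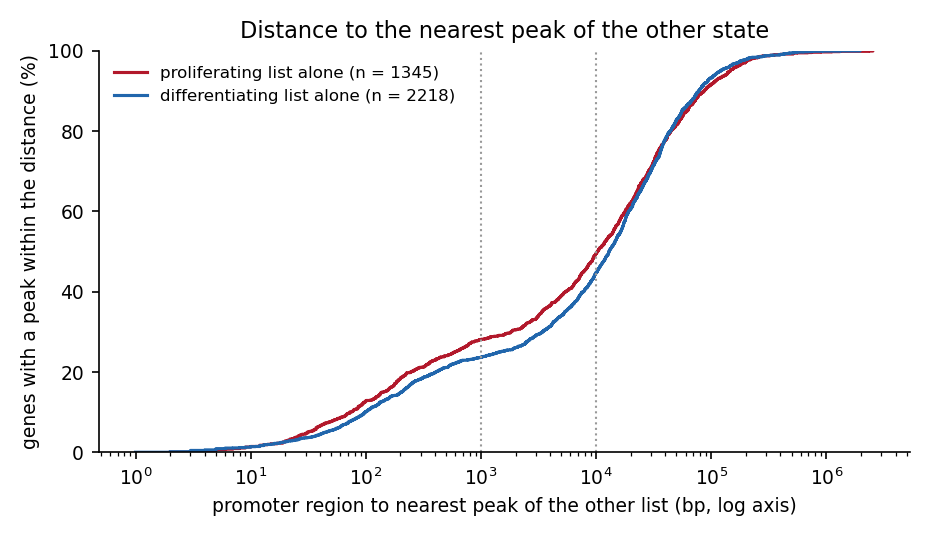
Cumulative percent of genes against the distance in bp (log axis) from the promoter region to the nearest peak of the other list, for genes marked in the proliferating list alone and in the differentiating list alone, with dotted lines at 1000 and 10000 bp. Both lines rise in a first step below 1000 bp, to 28.1% and 23.7%, and again from about 1000 to 100000 bp.

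The farthest members lay mostly on the X chromosome, where few promoters were marked in either list. Pdha1, a subunit of pyruvate dehydrogenase, was 2539838 bp from a differentiating peak, Il1rapl1, a synaptic adhesion protein, 2338997 bp, Msl3, of a histone acetyltransferase complex, 1312345 bp and Zmat1 1110836 bp. Tshz3, a zinc finger homeobox factor on chromosome 7, followed at 891542 bp. All 5 had a TSS under the peak, with −log10 q from 1.72 to 2.59. The nearest were Sipa1l1 at 2 bp, Rpl14, a ribosomal protein gene, and Tap1, a peptide transporter of antigen presentation, at 3 bp, and Dtnb, a dystrobrevin, and Pidd1, a scaffold of the p53 response, at 4 bp.

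At the edge of the rule, Sipa1l1 missed the class of genes marked in both lists by these 2 bp. On the other side, the differentiating peak reached 1 bp into the region of 4930505A04Rik, 3 bp into that of Kmt5b, a histone H4 methyltransferase, and 4 bp into that of Atad2, a bromodomain ATPase, and these 3 counted as marked in both. Klhl24, Orc4 and Rtca were members through 1 bp of their own peak inside the region. Kmt5b carried a peak of −log10 q 8.85 in the proliferating list and one of 9.92 in the differentiating list.

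Members that share a peak are not independent. The 1345 genes held 1266 distinct promoter peaks, and 88 peaks were shared by 2 or more members. Most were divergent or close neighbours, such as Kctd10 with Ube3b and Gpatch2 with Spata17, and the peak of 72 members also lay in the promoter region of a gene marked in both lists. Members were found on every chromosome except Y and the mitochondrial one. The share of genes that were members ran from 2.11% on X (20 of 948) and 3.36% on chromosome 7 to 8.79% on chromosome 15, where 26.9% of genes were marked in both lists against 2.53% on X.

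By function, the share of members ran from 0 of 69 protocadherins to 2 of 8 astrocyte markers over 33 lists of genes, beside 6.13% of all protein-coding genes. The exact interval of 30 lists included that value, which in a small list covers a wide range of shares, and those of olfactory receptors, vomeronasal receptors and protocadherins lay below it. These lists were written with earlier results of these data known, and their shares are descriptions without a test. Counts of list genes marked in both lists or in the differentiating list alone stand beside 17.6% and 10.1% of all protein-coding genes. In all, 157 members (11.7%) fell in at least 1 list. The matching share of all protein-coding genes was not counted, so this says nothing particular about the members.

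Genes of DNA replication and the cell cycle held 8 members of 78 (10.3%, interval 4.53 to 19.2), 26 genes marked in both and 11 marked in the differentiating list alone. The members covered several phases of the cycle. Ccne2, a cyclin of the G1/S step, had a peak of −log10 q 2.13 over its TSS (chr4:11190352-11192372) with the nearest differentiating peak at 32068 bp. Ccna2 (1.95) had one at 220 bp and Ccnb1 (1.93), the mitotic cyclin, at 41703 bp. Orc4 (3.08) and Orc2 (2.37), subunits of the origin recognition complex, had one at 247 and 166 bp. Rb1 (2.45), which restrains E2F, and Cdc25c (1.56), a phosphatase of mitotic entry, were also members. The proliferation genes Mki67, Mcm2 and Plk1 were marked in the differentiating list alone, with −log10 q of 3.29, 1.84 and 1.83.

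Replication-dependent histone genes, whose transcripts peak in S phase, were looked at after their values were seen. Of 67 genes with symbols of this family, 17 were members (25.4%), 32 were marked in both lists and 2 in the differentiating list alone, where all protein-coding genes stood at 6.13%, 17.6% and 10.1%. The 17 rested on 10 distinct peaks, since the genes lie in dense clusters: Hist1h2ag, Hist1h2bj and Hist1h4i shared 1 peak (chr13:22041593-22042958, −log10 q 2.91) and Hist1h1a, Hist1h3a and Hist1h4a another (chr13:23761158-23762345, −log10 q 2.98). All but Hist2h3b lay on chromosome 13. Hist2h3b had the highest −log10 q (4.64), with a differentiating peak 135 bp away. A differentiating peak lay within 10 kb of 11 of the 17, and the TSS was covered in 9. Copies of these genes are close in sequence and only uniquely mapped reads were kept. How much of each copy such reads can cover was not tested, and values of single copies are uncertain.

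Growth factor receptor and MAP kinase genes held 6 members of 57 (10.5%, interval 3.96 to 21.5), 19 genes marked in both and 9 in the differentiating list alone. Etv5, an Ets factor induced by Erk signalling, had a −log10 q of 3.76 and a differentiating peak 41 bp away, and Gab1, a docking protein of receptor kinases, 3.50 with one 68 bp away. Junb (2.44), a subunit of AP-1, and Dusp4 (2.19), a phosphatase of MAP kinases, had the nearest differentiating peak at 45055 and 327293 bp. Met (1.77), the receptor of hepatocyte growth factor, had it at 33806 bp. Erbb2, the mouse gene of the receptor family that PD174265 inhibits, had a peak of 2.43 whose centre was at −2773 bp from the TSS, where negative is upstream (chr11:98408946-98410448), with a differentiating peak 8565 bp from the region.

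Among 37 genes of the precursor stage, 3 were members (8.11%), 13 were marked in both lists and 6 in the differentiating list alone. Sox9, a factor of glial progenitors, had a peak of −log10 q 2.93 and fold enrichment 3.83 over its TSS (chr11:112781885-112782481), with the nearest differentiating peak at 72748 bp. Sox5, which restrains differentiation of precursors, had a weaker peak over its TSS (1.47) with the nearest differentiating peak 111809 bp from the region, while 10 lay in its long gene body. Zfp36l1, an RNA-binding protein that destabilises transcripts, had 2 peaks, the stronger at 1.99. Of 43 genes of myelin and oligodendrocyte differentiation, 1 was a member, Tcf7l2 (1.497, a Wnt effector with a differentiating peak 770 bp away), 10 were marked in both and 3, Nfasc, Itpr2 and Myrf, in the differentiating list alone.

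The signalling lists held shares at or above the 6.13% of all protein-coding genes, with wide intervals that include it. Genes marked in both lists and in the differentiating list alone numbered 9 and 6 for Notch and 7 and 4 for Wnt. For PI3K, Akt and mTOR they numbered 12 and 6. The Notch pathway held 3 of 33 (9.09%), among them Dll4, a ligand (−log10 q 2.88), and Adam10, the protease that sheds Notch (2.16). Dll4 had the nearest differentiating peak at 11837 bp and Adam10 at 41 bp. The Wnt pathway held Dvl2 (2.30) and Tcf7l2 of 31 (6.45%), with a differentiating peak at 370 and 770 bp. The PI3K, Akt and mTOR list held 2 of 29 (6.90%), both strong: Pik3r2, a regulatory subunit of PI3K, had 5.74 over the TSS with a differentiating peak 24 bp away, and Foxo1, a factor that Akt holds out of the nucleus, 5.28 downstream of the TSS with one 9250 bp away.

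Cholesterol and fatty acid synthesis held 5 members of 35 (14.3%, interval 4.81 to 30.3), the highest share among those of the 33 lists that hold 25 or more genes, though its interval includes 6.13%, with 22 genes marked in both and 2 in the differentiating list alone. Mvk, mevalonate kinase, had a peak of −log10 q 4.22 over the TSS with the nearest differentiating peak at 22021 bp. Dhcr7 (2.09), the last enzyme of cholesterol synthesis, and Insig2 (2.13), which holds Srebp in the endoplasmic reticulum, had one at 6431 and 4075 bp. Elovl5 (2.08), a fatty acid elongase, had one at 35 bp, and Srebf1 was the fifth member.

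Of the protein synthesis and turnover lists, cytosolic ribosomal proteins held 8 members of 80 (10.0%). Another 32 (40.0%) were marked in both and 17 (21.25%) in the differentiating list alone. Rps25 (4.07) and Rps15a (3.42) had a differentiating peak at 10474 and 9972 bp, while in 6 of the 8, among them Rpl41, Rpl13 and Rpl14, it was within 1000 bp. Mitochondrial ribosomal proteins held 6 of 78 (7.69%), with Mrpl58 highest (3.11). Proteasome subunits held 3 of 39 (7.69%), Psmb5 (3.08), Psmc2 (2.96) and Psma1 (1.71). These 3 had the nearest differentiating peak at 3555, 944 and 85 bp. Another 11 proteasome genes (28.2%) were marked in the differentiating list alone, beside 10.1% of all protein-coding genes. Hsp and DnaJ chaperones held 7 of 70 (10.0%), among them the mitochondrial chaperonin Hspd1 (4.75) and Dnajc9 (4.72), a chaperone of histones. The nearest differentiating peak was 130 bp from the Hspd1 region and 154057 bp from that of Dnajc9. Nuclear genes of oxidative phosphorylation held 3 of 84 (3.57%): Ndufb7, Cox5b and Ndufa9, with the nearest differentiating peak at 27158, 13 and 4979 bp.

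Regulators of transcription came next. Of 394 genes with Zfp symbols 27 were members (6.85%, interval 4.56 to 9.81), 89 were marked in both and 61 in the differentiating list alone, with Zfp821 (4.51) and Zfp467 (4.42) next after Zfp426. Zfp821 and Zfp467 had a differentiating peak 37 and 86 bp from the region. Of 75 histone and chromatin enzymes the chromatin remodeller Chd7 alone was a member (1.33%, interval 0.0338 to 7.21), while 34 were marked in both. The Chd7 peak (−log10 q 4.62) reached 16 bp into the region and overlapped a differentiating peak that lay 252 bp from the region. Sox factors held 2 of 19 (Sox9 and Sox5), forkhead factors 2 of 44 (Foxo1 and Foxd1), Klf and Sp symbols 2 of 29 (Klf3 and Sp100, the latter a nuclear body protein that only shares the prefix) and Hox genes 1 of 39 (Hoxa5, 1.44). Foxd1, Klf3 and Hoxa5 had a differentiating peak 56, 78 and 221 bp from the region.

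Genes of the membrane and of cell contact followed. Solute carriers held 22 of 375 (5.87%), with Slc33a1 (3.75) highest. Potassium channels held 7 of 92 (7.61%), 6 genes marked in both (6.52%) and 2 in the differentiating list alone (2.17%). Kcnt1 (4.41), Kcnc2 (3.02), Kcnq5 (2.96) and Kcnj3 (2.89) were highest among the 7. Their regions had the nearest differentiating peak at 59800, 7959, 85 and 50723 bp, in that order. Semaphorins, plexins, ephrins and Eph receptors held 4 of 51 (7.84%): Plxna3, Ephb3 (4.97), Epha7 (3.21) and Ephb6 (2.49). For Ephb3, Epha7 and Ephb6 the nearest differentiating peak was at 33987, 825 and 8278 bp. Collagens, laminins and integrins held 4 of 86 (4.65%) with Col20a1 (3.61) highest, and kinesins 4 of 42 (9.52%), led by Kif3b. Col20a1 had a differentiating peak 224 bp from the region.

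Families known for other tissues made up the last lists. Olfactory receptors held 15 of 1093 (1.37%, interval 0.770 to 2.25), 1 gene marked in both and 9 in the differentiating list alone, vomeronasal receptors 4 of 327 (1.22%), and keratins with their associated proteins 3 of 105 (2.86%). Olfr288 had the highest −log10 q of these (4.16). Symbols of interleukins, chemokines and their receptors held 5 of 133 (3.76%), of which Il4i1, an amino acid oxidase, and Il1rapl1 are not cytokines or their receptors. Protocadherins held 0 of 69, which allows a share of up to 5.21% by the exact interval.

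**Figure D5:**
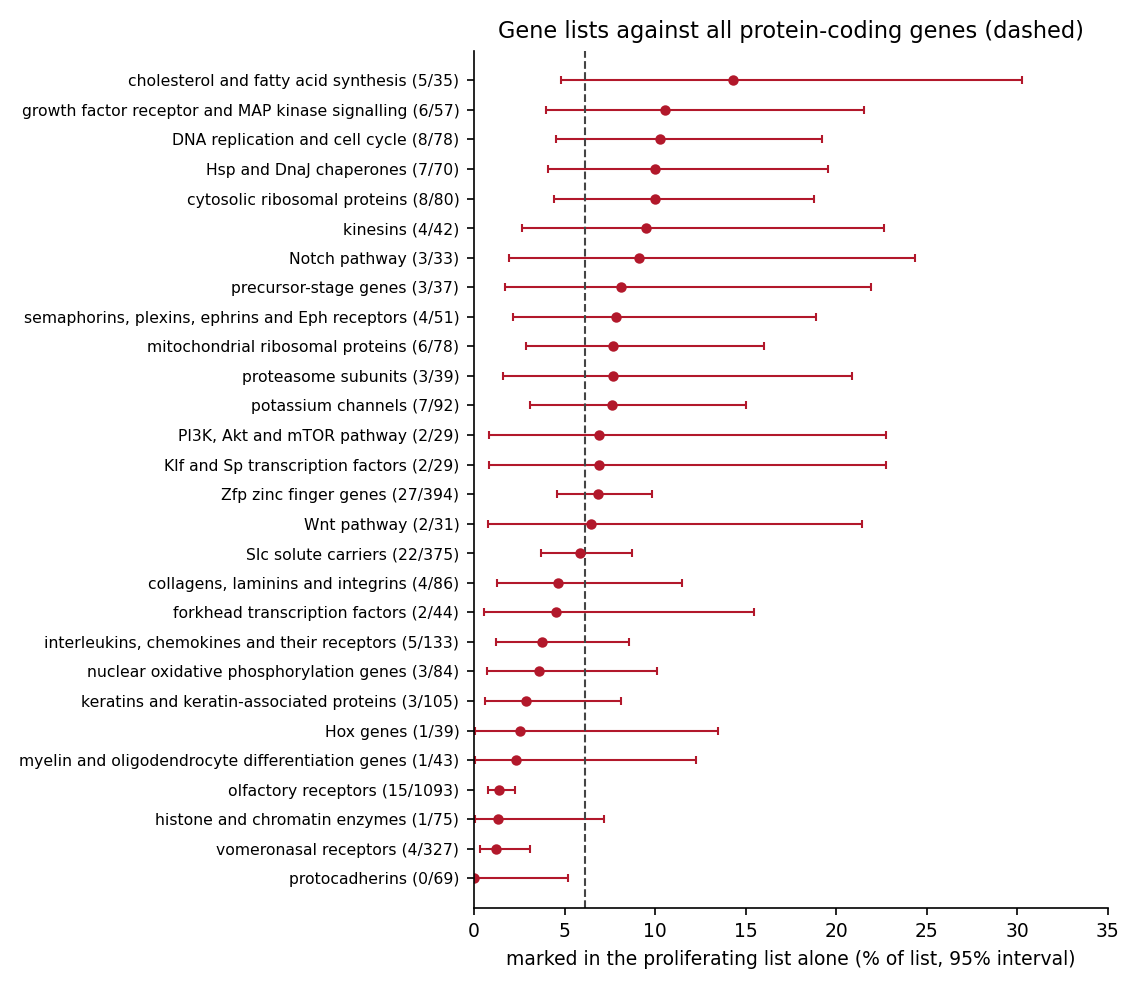
Percent of each list of 25 or more genes that was marked in the proliferating list alone, with exact binomial 95% intervals and the counts in parentheses; the dashed line is the 6.13% of all protein-coding genes. Cholesterol and fatty acid synthesis stood highest (5 of 35) with an interval that includes the line, and the intervals of olfactory receptors, vomeronasal receptors and protocadherins lie below it.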

How the data were processed

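H3K27ac ChIP-seq peaks of Oli-neu cells in the proliferating and the differentiating state (1 library each) were compared at promoters. The authors mapped reads to GRCm38/mm10 with Bowtie2 2.1.0, kept uniquely mapped reads, removed PCR duplicates with SAMtools, called broad peaks per library with MACS2 2.0.10 and removed peaks in blacklisted regions with bedtools. The deposited lists hold the start and end of each peak in bp and 3 joined numbers without a header. By the column order of MACS these were taken as fold enrichment, which is a ratio, and the −log10 of p and of q. An input library is not given in the sources used here. Peaks were ranked by strength only within their list, and the −log10 q of the lists was not compared between them; where values of both are given, each is on the scale of its own list.

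Genes and the TSS (the gene's start) were taken from GENCODE M21, whose build matches the lists. Python 3.11.15 with numpy 2.4.6, pandas 2.3.3, scipy 1.17.1, pysam 0.24.0 and matplotlib 3.10.9 was used. CpG content was counted over the 1000 bp centred on the TSS. Classification and distances were tested on simulated data. The members and gene lists were chosen with earlier results of these data known. Named genes were the 12 of highest −log10 q, the 8 widest, the 5 farthest from and 5 nearest to a differentiating peak, up to 4 per list, and those at the edge of the rule. Others were named after their values were seen, and some genes are not reported here. Alternatives changed the promoter region, the TSS, the peak threshold, the overlap, the number of peaks and the chromosomes. The 6 ATAC-seq samples (3 siCtrl, 3 siPadi2) were not analysed here.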

Additional observations from a re-analysis of the deposited data

How the results depend on the processing

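The count of 1345 members stayed within 1.5 times under 7 of 10 alternatives (967 to 1576). It was 785 where at least 0.5 of the proliferating peak had to lie inside the region, 295 where the proliferating peak needed a −log10 q of 3 and 344 where peaks of both lists needed one of 5, of which 49 were members in the report. Under the 8 alternatives without a raised threshold 390 members (29.0%) were kept every time, and of these 61.8% had a covered TSS and 63.1% a CpG-rich promoter. The 3 shares below left their own 95% interval in most or many settings, given in the order share with a differentiating peak within 10 kb, share with a covered TSS, share CpG-rich, where moved. A region of 6000 bp upstream gave 46.3%, 40.3% and 54.8%. A region of 1000 bp on both sides gave 33.3% and 41.6% for the first pair. The TSS of every transcript gave 43.9% for the first and 53.5% for the last. Differentiating peaks extended by 1000 bp gave 32.0%, 46.1% and 56.4%, a limit of 0.05 on q 46.3% for the first, and the threshold of 3 on the proliferating list 61.0% and 76.6% for the first and last. The threshold of 5 gave 6.98%, 68.9% and 91.9%, and the rule of 0.5 of the peak 40.4%, 46.8% and 54.4%. The stricter CpG definition gave 49.3%. Equal numbers of peaks and chromosomes 1 to 19 alone moved none of these. Of 330 gene list counts under the alternatives, 108 moved by more than 1.5 times. The causes were not tested. Replicates could not be left out with 1 library per state. No paired analysis was possible because each state has 1 library and the samples whose labels share replicate numbers were not analysed here. The lists hold no read counts, so a missing peak cannot be told apart from one below the caller's threshold.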
